A study of Mus musculus with 45 samples.

Results

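How far RNA polymerase II had travelled after a synchronised release was followed in 10 long genes of the mouse embryonic stem cell (ESC) network, which hold the transcription factors Esrrb, Tfcp2l1 and Tcf7l1, the LIF pathway genes Lifr, Il6st and Stat3, and the chromatin genes Dnmt3b, Tet1, Tet2 and Jarid2. Every annotated transcript of these genes that spans at least 20 kb was taken, which gave 57 transcripts from 31 start sites, of the 35031 transcripts of that length and the 122968 transcripts listed in all. Of the 57, 46 are annotated as protein coding. The genes were chosen by their place in the network and by length.

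The study placed the R749H substitution, which slows elongation, into the endogenous Polr2a gene of E14 ESCs grown in 2i medium, on no allele (WT/WT), on 1 allele (WT/slow) or on both alleles (slow/slow). All cells received DRB for 4 h, a kinase inhibitor that holds polymerases near promoters, and were harvested 5, 15 or 30 min after its removal with nascent RNA labelled by 4-thiouridine (4sU). Each of the 9 combinations of genotype and time had 3 biological replicates, so that 27 of the 45 samples of the series carried boundary values. The other 18 samples, without DRB or at 0 min, have none. The labels do not say how many clones each genotype came from, so that a clone and its genotype cannot be told apart. Reads per sample are not given with the boundaries, and the depth behind each value is therefore unknown. Between 41989 and 55046 transcripts of a sample had a boundary.

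In naive mouse ESCs, the cytokine LIF binds a receptor built from LIFR and gp130, the product of Il6st, and the receptor's JAK kinases activate the transcription factor STAT3. STAT3 drives Tfcp2l1, and Esrrb is a main target that is relieved when inhibition of GSK3 lifts repression by TCF3, the product of Tcf7l1. DNMT3B writes DNA methylation de novo, TET1 and TET2 oxidise methylated cytosine, and JARID2 guides Polycomb repressive complex 2 to its targets. Long genes make the passage of polymerase visible, because a wave released at the promoter needs many minutes to cross them.

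The measured quantity was the wave-front boundary, the distance in kb between a transcript's start site and the far edge of its nascent RNA. Boundaries came in steps of 100 bases and reached at most 59.3 kb. A boundary of exactly 2.5 kb took up 21.6% of the boundaries called in transcripts of at least 20 kb at 5 min, 42.2% at 15 min and 67.7% at 30 min. What this value stands for is not stated with the data, so it was marked, counted apart and left out of means and tests. Means below are over the remaining replicates, with the SD. Each gene is described first by its longest protein-coding transcript and then, in part, by its other transcripts and start sites.

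The 10 genes were long and rich in exons. Their median length was 71.4 kb with 16 exons and an intron 1 of 21.7 kb, beside 46.5 kb, 10 exons and 9.79 kb over the 11818 genes with a transcript of at least 20 kb. Jarid2 was the longest at 190.4 kb (chr13:44731271-44921643, plus strand, GRCm38), and its intron 1 alone spans 91.5 kb. Esrrb (chr12:86361117-86521628, plus strand) opens with an intron of 108.6 kb. Tcf7l1 (chr6:72626378-72789254, minus strand) holds 139.0 kb of its 162.9 kb in intron 3. Tet1 (chr10:62804577-62899118, minus strand), Tet2 (chr3:133463679-133544390, minus strand) and Lifr (chr15:7129559-7191743, plus strand) span 94.5, 80.7 and 62.2 kb. The 4 genes under 60 kb were Tfcp2l1 (chr1:118627946-118685168, plus strand, 57.2 kb), Stat3 (chr11:100885098-100939404, minus strand, 54.3 kb), Il6st (chr13:112464070-112510086, plus strand, 46.0 kb) and Dnmt3b (chr2:153649450-153687730, plus strand, 38.3 kb).

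Several members start at more than 1 place, and boundaries are given for these start sites below, so the sequences just upstream of such pairs are shown. Each is the 150 bases before the annotated start on the strand of the gene, from the RefSeq assembly GRCm38.p6, with each CG dinucleotide in capitals. They lie at chr15:7129409-7129558 (plus) and chr15:7154203-7154352 (plus) for Lifr, at chr13:112463920-112464069 (plus) and chr13:112474858-112475007 (plus) for Il6st, at chr13:44731121-44731270 (plus) and chr13:44840541-44840690 (plus) for Jarid2, and at chr12:86360967-86361116 (plus) and chr12:86469967-86470116 (plus) for Esrrb. None of these windows overlaps an exon of the listed transcripts of at least 20 kb of its gene.
Lifr start site 1: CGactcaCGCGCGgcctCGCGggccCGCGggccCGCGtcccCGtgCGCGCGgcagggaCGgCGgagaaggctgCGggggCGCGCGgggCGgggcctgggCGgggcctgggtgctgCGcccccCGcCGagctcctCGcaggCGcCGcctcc
Lifr start site 2: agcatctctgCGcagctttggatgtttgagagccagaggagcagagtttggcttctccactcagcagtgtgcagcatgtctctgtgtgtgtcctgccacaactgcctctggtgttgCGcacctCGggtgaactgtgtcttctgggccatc
Il6st start site 1: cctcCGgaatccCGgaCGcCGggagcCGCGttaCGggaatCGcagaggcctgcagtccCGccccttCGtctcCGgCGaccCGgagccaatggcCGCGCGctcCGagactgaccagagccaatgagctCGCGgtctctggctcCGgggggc
Il6st start site 4: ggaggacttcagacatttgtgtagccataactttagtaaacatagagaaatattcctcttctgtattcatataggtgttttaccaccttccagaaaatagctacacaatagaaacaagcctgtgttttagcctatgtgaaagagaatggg
Jarid2 start site 4: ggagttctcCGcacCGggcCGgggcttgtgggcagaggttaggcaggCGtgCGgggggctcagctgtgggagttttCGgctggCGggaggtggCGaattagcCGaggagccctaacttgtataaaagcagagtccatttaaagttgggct
Jarid2 start site 8: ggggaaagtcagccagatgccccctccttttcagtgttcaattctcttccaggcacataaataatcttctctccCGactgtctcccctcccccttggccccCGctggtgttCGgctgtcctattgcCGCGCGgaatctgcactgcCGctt
Esrrb start site 1: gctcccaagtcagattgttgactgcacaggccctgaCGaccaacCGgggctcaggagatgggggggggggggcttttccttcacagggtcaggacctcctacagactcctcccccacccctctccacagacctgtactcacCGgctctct
Esrrb start site 4: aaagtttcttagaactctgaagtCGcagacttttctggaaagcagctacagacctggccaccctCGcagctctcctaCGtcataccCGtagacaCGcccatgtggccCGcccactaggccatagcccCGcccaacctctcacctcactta

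The upstream starts of Lifr and Il6st carry 28 and 20 CG, the internal starts shown 3 and 0. In Jarid2 the counts were 9 and 7, and in Esrrb 3 upstream and 7 at the start 109 kb downstream. The windows of the other internal Esrrb starts, 60.5 and 60.8 kb downstream, hold 2 and 24. Over the longest transcripts of the 10 genes the median was 15 CG per window, beside 8 over the 11818 genes, and 8 of the 10 windows held at least 5 CG, beside 64.0% of all. Of the motifs searched on both strands, GGGCGG was found in 5 of the 10 windows (41.8% of all genes), CCAAT in 3 (25.0%), TATAAA in 2 (4.75%) and TTCNNNGAA, the letters of a STAT site, in 0 (3.68%). The Esrrb start 109 kb downstream held both GGGCGG and TTCNNNGAA. A match describes letters only.

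The 5 min samples show how far the wave had entered each gene. In WT/WT cells the mean boundary was lowest in Esrrb (5.25 kb ± 0.212, SD, n = 2) and Tet1 (7.10 kb ± 3.47, n = 3) and highest in Stat3 (17.0 kb ± 4.31, n = 3) and Jarid2 (18.9 kb ± 9.98, n = 3). Between them stood Lifr at 9.33, Tet2 at 10.5, Tcf7l1 at 10.7, Tfcp2l1 at 13.0, Il6st at 15.8 and Dnmt3b at 16.2 kb. Neighbours in this order overlapped in their replicates, whereas the Esrrb values lay under all values of Stat3 and Jarid2. At 5 min the front lay in intron 1 in Esrrb, Tet1, Tet2, Jarid2, Lifr and Stat3, in intron 2 in Tfcp2l1, in intron 3 in Il6st and Tcf7l1, and in intron 5 in Dnmt3b.

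**Figure D1:**
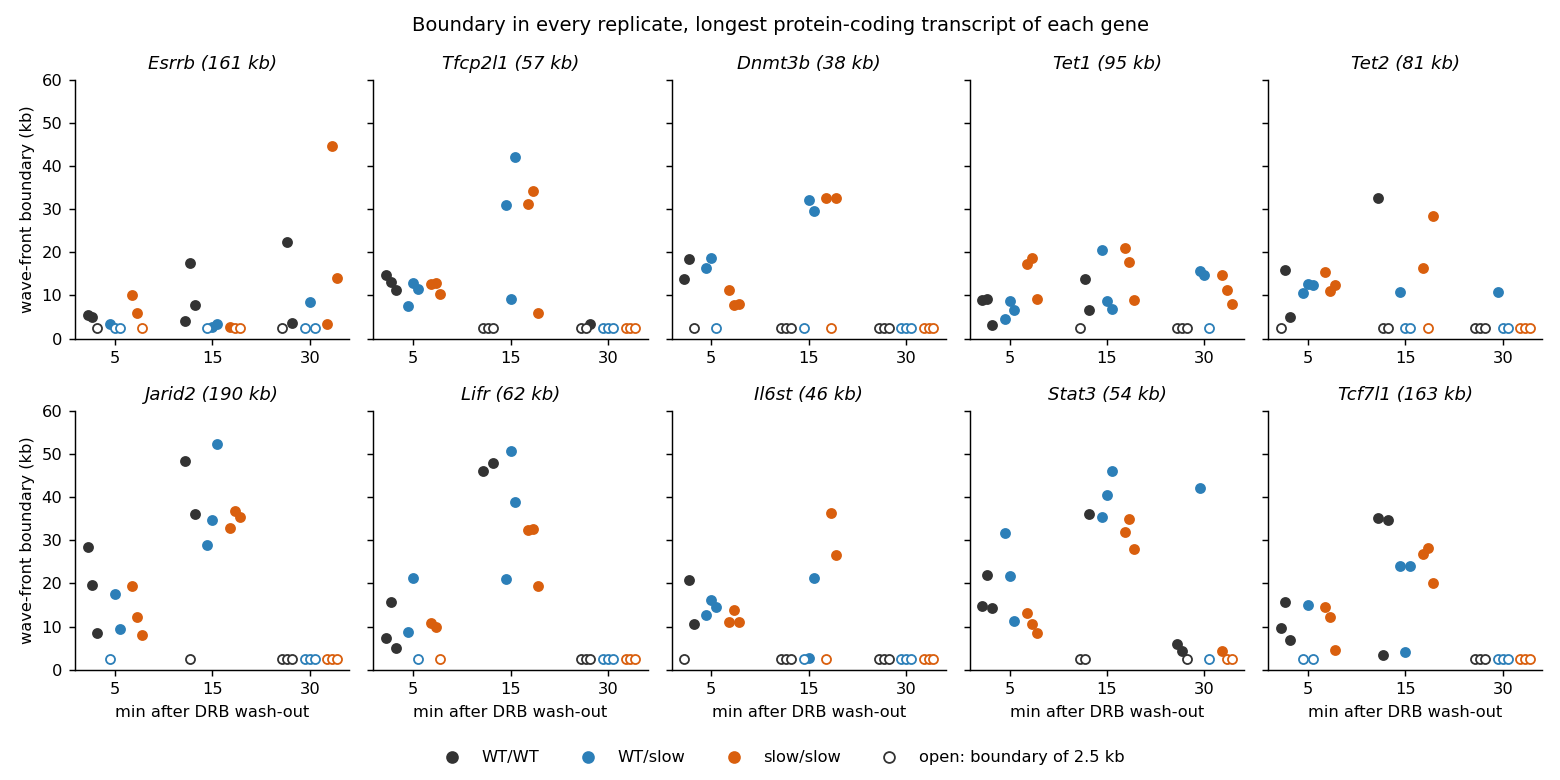
Wave-front boundary in kb (vertical axis) against minutes after DRB removal for the longest protein-coding transcript of each of the 10 genes; each point is 1 replicate, coloured by genotype, and open points are boundaries of 2.5 kb. By group means without 2.5 kb, Jarid2 and Lifr stand farther out at 15 than at 5 min in each genotype. Tet1 does not exceed 21 kb, and of 90 entries at 30 min 72 are open and 1 has no call.

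The receptor subunit Lifr showed the longest advance of the 5 genes tested in WT/WT cells. In WT/WT cells its boundary was 7.3, 15.7 and 5.0 kb at 5 min and 46.1 and 47.9 kb at 15 min, where replicate 2 had no call. In WT/slow cells it was 8.7 and 21.3 kb with 1 value at 2.5 kb, then 21, 50.6 and 38.8 kb. In slow/slow cells it was 10.9 and 10 kb with 1 value at 2.5 kb, then 32.5, 32.6 and 19.4 kb. All values at 15 min exceeded all at 5 min in WT/WT and slow/slow cells, whereas in WT/slow cells the lowest at 15 min lay just under the highest at 5 min. By the mean front at 15 min, polymerase stood in intron 10 in WT/WT, in intron 5 in WT/slow and in intron 3 in slow/slow cells. The advance in WT/WT cells was 37.7 kb (SE 7.52, adjusted p = 0.00568, limma, 2 of 2 values at 15 min above 3 of 3 at 5 min), or 3.77 kb per min. It was 21.8 kb in WT/slow (adjusted p = 0.0659, 2 of 3 values at 15 min above both at 5 min) and 17.7 kb in slow/slow cells (adjusted p = 0.0923, 3 of 3 values at 15 min above both at 5 min), and neither passed the test. With 2.5 kb left out at 15 min only, both did (26.0 and 20.4 kb, adjusted p = 0.0162 and 0.0377). The WT/slow advance also passed without replicate 1 at 15 min (29.7 kb, adjusted p = 0.00686) and was 14.9 kb without replicate 2 (adjusted p = 0.176).

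A shorter Lifr transcript from the same start advanced in all 3 genotypes, by 24.9 kb in WT/WT (adjusted p = 0.0468), 35.6 kb in WT/slow (adjusted p = 0.00660) and 26.3 kb in slow/slow cells (adjusted p = 0.0353). In it, the WT/WT replicates stood at 7.7, 16.4 and 5.7 kb and then at 45.7, 14.2 and 44.5 kb, so that 2 of 3 exceeded all 5 min values. In WT/slow cells 3 of 3 values at 15 min (50.7, 50.4 and 37.9 kb) exceeded those at 5 min, and in slow/slow cells 3 of 3 did (31.6, 32.5 and 48.8 kb). The slow/slow replicate 3 was thus placed at 19.4 kb in the longer transcript and at 48.8 kb in the shorter one.

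Il6st is the gene of the shared signal-transducing subunit gp130. At 5 min the boundary of its longest transcript was 20.8 and 10.7 kb in WT/WT (1 value at 2.5 kb), 12.7, 16.1 and 14.6 kb in WT/slow and 11, 13.9 and 11.1 kb in slow/slow cells. At 15 min all 3 WT/WT values were 2.5 kb, WT/slow cells had 2.8 and 21.3 kb, and slow/slow cells had 36.4 and 26.7 kb. The advance in slow/slow cells was 19.6 kb (adjusted p = 0.0272, 2 of 2 values at 15 min above 3 of 3 at 5 min), to intron 11. In the shorter transcript from the same start it was 3.68 kb (adjusted p = 0.765), with 3 and 27.5 kb at 15 min where replicate 2 had no call, and in the transcript that starts 0.171 kb downstream 4.05 kb (adjusted p = 0.583). The longest transcript lay 2.42 kb lower at 15 than at 5 min in WT/slow cells (adjusted p = 0.829). There the shorter one lay 1.67 kb lower (adjusted p = 0.915) and the one 0.171 kb downstream 11.2 kb farther out (adjusted p = 0.160). In WT/WT cells the longest could not be tested, and those 2 other transcripts lay 14.35 and 12.9 kb lower (adjusted p = 0.347 and 0.129). The genotypes of the longest transcript could not be compared at 15 min with 2.5 kb left out. With every boundary kept its slow/slow value lay 19.4 kb above WT/WT (adjusted p = 0.400).

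Stat3, the transcription factor at the end of the LIF pathway, had boundaries of 14.8, 22 and 14.3 kb in WT/WT cells, 31.7, 21.7 and 11.4 kb in WT/slow cells and 13.2, 10.6 and 8.6 kb in slow/slow cells at 5 min. At 15 min WT/WT cells kept 1 value above 2.5 kb, 36.2 kb, while WT/slow cells gave 35.4, 40.6 and 46.0 kb and slow/slow cells 32.0, 34.9 and 27.9 kb. The front advanced by 19.1 kb in WT/slow (SE 4.69, adjusted p = 0.0142) and by 20.8 kb in slow/slow cells (SE 4.70, adjusted p = 0.00693), and 3 of 3 values at 15 min exceeded 3 of 3 at 5 min in each. It passed from intron 1 to intron 12 in WT/slow and to intron 4 in slow/slow cells. Of the 4 Stat3 transcripts, which share this start, 2 passed in WT/slow (the other 2 at adjusted p = 0.0692 and 0.0800) and 4 in slow/slow cells. In WT/WT cells 2 could be tested, and neither passed (3.88 and 2.77 kb, adjusted p = 0.805 and 0.863).

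Among the transcription factors, Tfcp2l1, which STAT3 induces, stood at 14.8, 13.1 and 11.2 kb in WT/WT cells, 7.6, 12.9 and 11.5 kb in WT/slow cells and 12.7, 13 and 10.3 kb in slow/slow cells at 5 min, the tightest replicates of the 4 genes under 60 kb in WT/WT cells. At 15 min all 3 WT/WT values were 2.5 kb, WT/slow cells gave 30.9, 9.3 and 42.1 kb, and slow/slow cells 31.1, 34.1 and 5.9 kb. In both mutant genotypes 1 replicate of 3 lay within or below the 5 min values. The advances of 16.8 kb in WT/slow (adjusted p = 0.160, 2 of 3 values above those at 5 min) and 11.7 kb in slow/slow cells (adjusted p = 0.266, 2 of 3) did not pass the test. They passed without that replicate, at 25.8 kb without WT/slow replicate 2 and 20.6 kb without slow/slow replicate 3, both at 15 min (adjusted p = 0.0233 and 0.0465). Without replicate 3 the WT/slow advance was 9.43 kb (adjusted p = 0.482), and without replicate 2 the slow/slow advance was 6.50 kb (adjusted p = 0.610).

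Esrrb, an orphan nuclear receptor that sustains self-renewal, showed no steady wave from its upstream start. At 5 min its values above 2.5 kb were 5.4 and 5.1 kb in WT/WT cells, 3.3 kb in WT/slow cells and 10 and 5.9 kb in slow/slow cells. At 15 min they were 4.0, 17.5 and 7.9 kb, 2.6 and 3.4 kb, and 2.7 kb in the same order. Fronts thus stayed in the upstream part of the 108.6 kb intron 1, and the WT/WT mean at 15 min had covered 6.11% of the transcript. At 30 min slow/slow cells gave 3.3, 44.7 and 14.0 kb. Among the longest transcripts, this was the only group with 3 values above 2.5 kb at that time besides Tet1 in the same cells.

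Tcf7l1, whose product represses the network in the absence of Wnt signals, had its mean front in intron 3 at 5 min. Its boundary was 9.7, 15.6 and 6.9 kb in WT/WT cells at 5 min and 35.2, 3.5 and 34.8 kb at 15 min, where replicate 2 lay far behind the others. Slow/slow cells gave 14.5, 12.2 and 4.7 kb, then 26.8, 28.3 and 20 kb, with 3 of 3 later values above the earlier ones. WT/slow cells kept only 15.1 kb at 5 min and gave 24, 4.1 and 24.1 kb at 15 min. The advances were 13.8 kb in WT/WT (adjusted p = 0.297, 2 of 3 values at 15 min above those at 5 min) and 14.6 kb in slow/slow cells (adjusted p = 0.166), neither past the test. Without WT/WT replicate 2 at 15 min the first of them was 24.3 kb and passed (adjusted p = 0.0136), and without replicate 1 or 3 it was 8.42 or 8.62 kb (adjusted p = 0.615 and 0.613).

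The longest transcripts of Tet1, Jarid2 and Lifr could be tested in all 3 genotypes, and of these Jarid2 advanced past the test in each. WT/WT cells went from 28.4, 19.7 and 8.5 kb to 48.3 and 36.2 kb, WT/slow cells from 17.6 and 9.5 kb to 28.9, 34.7 and 52.4 kb, and slow/slow cells from 19.5, 12.2 and 8.0 kb to 32.8, 36.9 and 35.4 kb. Apart from values of 2.5 kb, in WT/WT replicate 2 at 15 min and WT/slow replicate 1 at 5 min, every value at 15 min exceeded every value at 5 min of its genotype, and the slow/slow replicates at 15 min were the closest together (SD 2.07 kb, n = 3). The front advanced by 23.4 kb in WT/WT (adjusted p = 0.0442), 25.1 kb in WT/slow (adjusted p = 0.0278) and 21.8 kb in slow/slow cells (adjusted p = 0.0223), or 2.34, 2.51 and 2.18 kb per min. Over all Jarid2 transcripts tested, 2 of 13 passed in WT/WT cells, both from the start of the longest one, and the other 11 advanced by 8.87 to 22.7 kb with adjusted p from 0.0625 to 0.721. In WT/slow cells 9 of 12 passed and in slow/slow cells 11 of 13. The front of the longest transcript stayed in intron 1, and at 15 min the front had covered 22.2, 20.3 and 18.4% of the transcript.

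In Dnmt3b, the shortest gene, the front had covered 80.5% (WT/slow) and 84.9% (slow/slow) of the transcript at 15 min. At 5 min its boundary was 13.9 and 18.5 kb in WT/WT cells, 16.4 and 18.6 kb in WT/slow cells and 11.3, 7.7 and 8.0 kb in slow/slow cells, so that the slow/slow values lay below those of the other genotypes except 2.5 kb in replicate 3 of each. At 15 min all 3 WT/WT values were 2.5 kb, WT/slow cells gave 32.1 and 29.5 kb and slow/slow cells 32.5 and 32.5 kb, in intron 20 of a 38.3 kb gene. The front advanced by 13.3 kb in WT/slow (adjusted p = 0.0313, 2 of 2 values above 2 of 2) and 23.5 kb in slow/slow cells (adjusted p = 0.00213, 2 of 2 above 3 of 3). All 9 transcripts from this start passed in both genotypes, whereas the one that starts 0.167 kb downstream did not (7.5 and 14.4 kb, adjusted p = 0.618 and 0.153).

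The TET genes showed no advance past the test where one could be tested. Tet1 had 9.0, 9.2 and 3.1 kb in WT/WT cells, 4.5, 8.7 and 6.7 kb in WT/slow cells and 17.2, 18.8 and 9.2 kb in slow/slow cells at 5 min. At 15 min it had 13.9 and 6.6 kb, then 20.5, 8.8 and 6.8 kb, and then 21, 17.7 and 9.0 kb in the same order of genotypes. It kept values above 2.5 kb at 30 min, 15.6 and 14.8 kb in WT/slow and 14.8, 11.3 and 8.0 kb in slow/slow cells. Its boundaries overlapped between times in every genotype, and its advances of 3.15, 5.40 and 0.833 kb had adjusted p values of 0.745, 0.431 and 0.910. The WT/WT advance was 1.15 kb without replicate 3 at 5 min, and the WT/slow advance 1.17 kb without replicate 1 at 15 min. The slow/slow advance was 1.9, 2.7 and -2.1 kb without replicate 1, 2 or 3 at 5 min and -1.72, -0.0667 and 4.28 kb without them at 15 min. The front remained in intron 1 of 18.8 kb at each time by group mean. Tet2 stood at 15.9 and 5.0 kb, 10.6, 12.6 and 12.4 kb, and 15.4, 11 and 12.4 kb at 5 min. At 15 min it gave 32.6 kb in 1 WT/WT sample and 10.7 kb in 1 sample of WT/slow, too few to test, and 16.3 and 28.5 kb in slow/slow cells, an advance of 9.47 kb (adjusted p = 0.158, 2 of 2 values above 3 of 3). At another Tet2 start within 3 kb the slow/slow value was -5.73 kb (adjusted p = 0.690), and at the Tet1 start 19.1 kb downstream the WT/WT advance was 20.65 kb (adjusted p = 0.394), from 2.8 and 5.0 kb to 2.7 and 46.4 kb.

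By count, the longest transcripts of 2 of 5 genes tested advanced in WT/WT cells (Lifr, Jarid2), beside 13.7% of all 14014 transcripts tested (14.8% called in either direction). In WT/slow cells 3 of 7 did (Dnmt3b, Stat3, Jarid2), beside 17.9% of 14809 (18.4% in either direction), and in slow/slow cells 4 of 9 (Dnmt3b, Stat3, Jarid2, Il6st), beside 29.6% of 16569 (29.9% in either direction). The median advance over the genes tested was 13.8, 16.8 and 17.7 kb, beside 3.80, 7.77 and 13.0 kb over 1 transcript of every gene tested. Neither the shares nor the medians over all were matched by length, and the 10 genes were longer. With 2.5 kb left out, sample medians over all genes of 60 to 100 kb averaged 13.7, 13.18 and 10.4 kb at 5 min. At 15 min they averaged 21.05, 24.97 and 28.13 kb in the same order of genotypes. In genes of 20 to 30 kb they lay lower at 15 than at 5 min in each genotype. Whether the members advanced farther than genes of their length was not tested. A gene was tested where 2 of 3 boundaries differed from 2.5 kb in both groups, so that the sets of genes differ between genotypes.

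With every boundary as deposited, 2.5 kb included, the longest transcripts of all 10 genes were tested, and limma called 1 in WT/WT (Lifr, beside 11.5% of all), 1 in WT/slow (Lifr, 26.0 kb, adjusted p = 0.0226, beside 14% of all) and 0 in slow/slow cells (beside 12.3% of all). The calls of Jarid2, Dnmt3b, Stat3 and Il6st thus ended when values of 2.5 kb were kept, with advances of 10.1, 28.8 and 21.8 kb in Jarid2 (WT/WT, WT/slow and slow/slow), 8.87 and 13.5 kb in Dnmt3b, 19.1 and 20.8 kb in Stat3 (each WT/slow and slow/slow) and 9.87 kb in Il6st. On log2 values the calls of Jarid2 in WT/WT (1.31) and WT/slow (1.53), of Dnmt3b (0.82) and Stat3 (1.03) in WT/slow and of Il6st in slow/slow cells (1.39) ended as well. Without a minimum length the Jarid2 call in WT/WT cells ended (23.4 kb, adjusted p = 0.0559). With a block on replicate number, which the design does not state, this call also ended, as did those of Dnmt3b in WT/slow and Il6st in slow/slow cells. Lifr then passed in WT/slow and slow/slow cells, and the values are given in the last section. The Jarid2 call in WT/WT cells ended without replicate 2 at 5 min (23.8 kb) or replicate 3 at 5 min (18.2 kb), in WT/slow cells without replicate 3 at 15 min (18.3 kb), and in slow/slow cells without replicates 2 or 3 at 5 min (21.3 and 19.2 kb) or replicate 2 at 15 min (20.9 kb). The Lifr call in WT/WT cells held in each alternative that could be run. Requiring all 3 boundaries, or dropping replicate 1 or 3 at 15 min, could not be run, since replicate 2 has no boundary there. The Stat3 call in WT/slow cells ended without replicate 3 at 5 min (14.0 kb) or at 15 min (16.4 kb), and the Il6st call in slow/slow cells without replicate 1, 2 or 3 at 5 min (19.1, 20.5 and 19.1 kb).

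**Figure D2:**
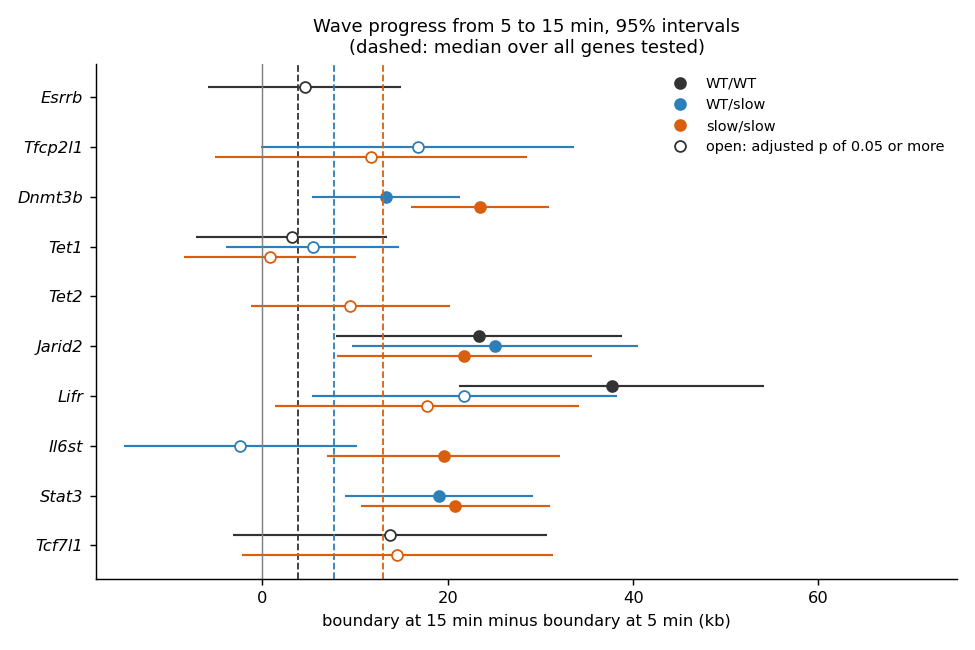
Advance of the boundary from 5 to 15 min in kb (horizontal axis) for each gene tested, by genotype, with 95% intervals. Filled points passed the test. Dashed lines are medians over all genes tested, not matched by length. Lifr in WT/WT cells had the largest advance (37.7 kb), and the Jarid2 points of the 3 genotypes lie within each other's intervals.

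Whether the slow polymerase lagged was asked by comparing genotypes at the same time. Both comparisons share the WT/WT samples. At 5 min the slow/slow boundary was below that of WT/WT cells in 6 of the 10 genes and above it in 4, while 74.5% of all genes tested were below. The median difference was -0.65 kb beside -2.77 kb over 1 transcript of every gene tested. Dnmt3b (-7.20 kb, 95% interval -14.6 to 0.174), Stat3 (-6.23 kb, -17.1 to 4.63) and Jarid2 (-5.63 kb, -18.2 to 6.91) had the most negative values, and Tet1 had the most positive (7.97 kb, 0.529 to 15.4). In Dnmt3b and Stat3 all 3 slow/slow values lay under all WT/WT values above 2.5 kb, and in Esrrb the slow/slow values lay above. Ranges thus did not overlap in 3 of 10 genes, beside 22.3% of all transcripts tested. limma called 0 of 10 genes (0.0518% of 21245 transcripts called), and 1 gene, Tet1, had an unadjusted p under 0.05 (adjusted p = 0.530, 2 of 3 slow/slow values above 3 of 3 in WT/WT). With every boundary kept the differences of Lifr (-1.53 kb) and Il6st (0.667 kb) turned sign, and that of Dnmt3b was -2.63 kb. The Jarid2 difference was -0.867 kb without WT/WT replicate 1, -10.8 kb without WT/WT replicate 3, -8.77 kb without slow/slow replicate 1 and -3.02 kb without slow/slow replicate 3, and that of Stat3 was -3.75 kb without WT/WT replicate 2.

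The WT/slow boundary at 5 min differed from WT/WT by a median of 0.417 kb over the 8 genes tested, beside -0.383 kb over all genes. It was lower in 4 genes and higher in 4, while 53.6% of all genes tested were lower. The values ran from -5.32 kb in Jarid2 to 5.67 kb in Lifr. Without WT/WT replicate 1 the Jarid2 value was -0.55 kb and without replicate 3 -10.5 kb, while Lifr had 8.85 kb without WT/WT replicate 2 and 3.50 kb without replicate 3. With every boundary kept they were -9.00 and 1.5 kb. limma called 0 of 8 genes (0.0375% of 21335 transcripts called), 0 had an unadjusted p under 0.05, and ranges that did not overlap were found in 0 of 8, beside 14.2% of all.

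At 15 min only the longest transcripts of Tet1, Jarid2, Lifr and Tcf7l1 had enough values for slow/slow against WT/WT. The longest Lifr transcript stood 18.8 kb nearer its start in slow/slow cells (28.2 kb ± 7.59, n = 3, against 47.0 kb ± 1.27, n = 2), with 3 of 3 slow/slow values under 2 of 2 WT/WT values. Its difference of -18.8 kb had a 95% interval from -39.6 to 1.95 kb and an adjusted p of 0.331. In the shorter Lifr transcript from the same start the sign was the opposite, 2.83 kb (37.6 against 34.8 kb, adjusted p = 0.917), and replicates overlapped. The longest Lifr transcript was the only 1 of the 4 whose ranges did not overlap, beside 36.6% of all. Jarid2 differed by -7.22 kb (6.03 kb with every boundary kept), Tcf7l1 by 0.533 kb and Tet1 by 5.65 kb, each with replicates that overlapped. The 4 Jarid2 transcripts from this start had -7.22 to -6.32 kb, and the 9 from other starts within 3 kb had -1.78 to 11.97 kb. From the Tet1 start 19.1 kb downstream the difference was -16.05 kb (adjusted p = 0.677). That of the longest Tet1 transcript was 3.1 kb without slow/slow replicate 1 and 9.1 kb without replicate 3. That of Tcf7l1 was 5.88, -9.97 and 5.68 kb without WT/WT replicate 1, 2 or 3, and -0.35, -1.1 and 3.05 kb without those of slow/slow cells. limma called 0 of 4 genes (3.26% of 12457 transcripts called), with 0 at an unadjusted p under 0.05. Stat3 and Il6st could be compared in other transcripts only, with slow/slow farther out and none called. The differences were 12.05 and 12.97 kb in Stat3. In Il6st they were 11.95 kb from the upstream start and 12.6 kb from the start 0.171 kb downstream. The Il6st start 10.9 kb downstream is described below. The other Tcf7l1 transcripts had 0.433 and -2.67 kb.

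In the longest transcripts, the WT/slow boundary at 15 min was lower than in WT/WT cells in 4 of 5 genes, beside 47.6% of all genes tested. The group means were 36.8 against 47.0 kb in Lifr, 17.4 against 24.5 kb in Tcf7l1, 3.00 against 9.80 kb in Esrrb and 38.7 against 42.3 kb in Jarid2. With every boundary kept the Jarid2 difference of -3.58 kb became 9.67 kb, and the 9 transcripts from other starts within 3 kb had -2.02 to 12.6 kb. The median difference was -6.80 kb, beside 0.433 kb over all genes tested. Esrrb ranges did not overlap, 1 of 5 genes beside 27.5% of all. Its WT/slow values of 2.6 and 3.4 kb lie close to the 2.5 kb that was left out. limma called 0 of 5 genes (2.41% of 12056 transcripts called), and 0 had an unadjusted p under 0.05. Stat3 and Il6st could be compared in other transcripts only, and these lay farther out in WT/slow cells. The differences were 19.8 and 21.1 kb in Stat3 and 7.85, 14.3 and 21.65 kb in Il6st. The Tet1 start 19.1 kb downstream had -19.5 kb, and the other Tcf7l1 starts -10.2 and -7.1 kb. limma called none of these transcripts. With 0, 1 and 2 slow alleles the longest Lifr transcript had means of 47.0, 36.8 and 28.2 kb and the shorter one 34.8, 46.3 and 37.6 kb, so that the order differs between them. From the internal start the means were 23.5, 15.6 and 8.03 kb, in the order of the longest transcript, and the slow/slow difference was -15.4 kb (unadjusted p = 0.0401, adjusted p = 0.253). The Lifr difference was -2.30 kb without WT/slow replicate 1 and -17.1 kb without replicate 2, and that of Esrrb was -2.95 kb without WT/WT replicate 2. Tcf7l1 had -1.75, -17.6 and -1.95 kb without WT/WT replicate 1, 2 or 3, and -0.45 kb without WT/slow replicate 2.

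Whether the advance itself differed by genotype was tested for slow/slow against WT/WT, in the longest transcripts of the same 4 genes. Lifr advanced by 17.7 kb in slow/slow and 37.7 kb in WT/WT cells, a difference of -19.9 kb (95% interval -43.3 to 3.43, adjusted p = 0.478, 3 of 3 slow/slow values at 15 min below 2 of 2 in WT/WT). In the shorter Lifr transcript from the same start the difference was 1.42 kb (26.3 against 24.9 kb). Jarid2 (-1.58 kb, or 11.7 kb with every boundary kept), Tet1 (-2.32 kb, or 0.267 kb) and Tcf7l1 (0.800 kb) differed by less than their standard errors where 2.5 kb was left out. The 9 Jarid2 transcripts from other starts within 3 kb had 4.93 to 22.3 kb. limma called 0 of 4 genes (1.65% of 9996 transcripts called), and 0 had an unadjusted p under 0.05. The SEs ran from 6.69 to 11 kb over the 4 genes.

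**Figure D3:**
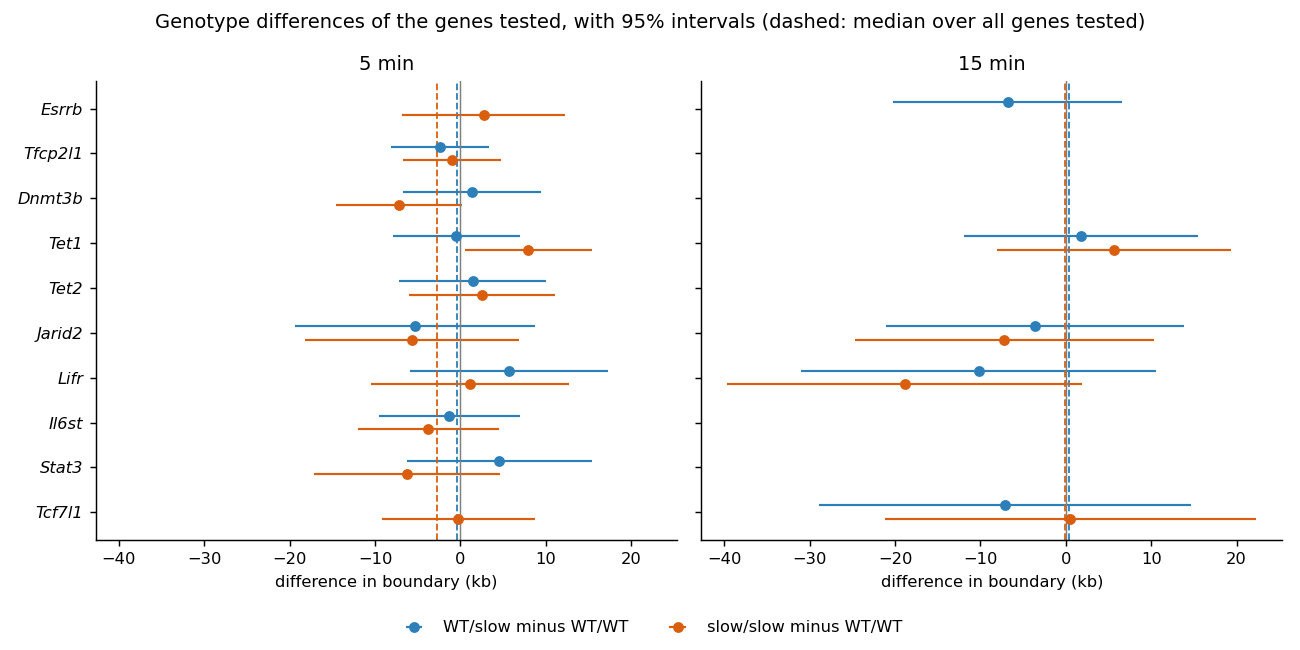
Difference in boundary from WT/WT cells in kb (horizontal axis) at 5 min (left) and 15 min (right) for each gene tested, with 95% intervals; dashed lines are medians over all genes tested. Every interval crosses 0 except Tet1 in slow/slow cells at 5 min (0.529 to 15.4 kb).

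Some members also have starts inside the gene. The internal Lifr start, 24.8 kb downstream with 3 CG in its window, gave 20.6, 30.4 and 19.4 kb in WT/WT cells at 15 min, 26.1 and 5.0 kb in WT/slow and 7.7, 11.7 and 4.7 kb in slow/slow cells. Once the offset of the start is added, WT/WT replicates 1 and 3 lie within 4 kb of the 46.1 and 47.9 kb placed from the upstream start. WT/slow replicate 2 and slow/slow replicates 1 and 2 also lie within 4 kb of their upstream values. Replicate 3 does not, with 38.8 kb upstream in WT/slow and 19.4 kb in slow/slow cells. The transcripts of a gene overlap and are not independent.

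At the Il6st start shown above, 10.9 kb downstream and without CG in its window, the transcript ENSMUST00000183513 gave 7.8, 9.6 and 7.8 kb in WT/WT cells at 5 min and 7.8 kb with 2 values at 2.5 kb at 15 min. Slow/slow cells gave 2.5 kb in 3 of 3 samples at 5 min and 23.2, 24.9 and 16.9 kb at 15 min, and WT/slow cells 16.4, 16.0 and 15.2 kb at 15 min. In the other transcripts from this start, WT/slow replicate 3 stood at 3.1 kb or less at 15 min. In ENSMUST00000183513, WT/WT replicate 1 had 7.8 kb at 5, 15 and 30 min, and replicate 2 had it at 30 min. With the offset of the start added, slow/slow replicates 2 and 3 lie near the 36.4 and 26.7 kb placed from the upstream start at 15 min. Slow/slow replicate 1 (2.5 kb upstream) and the WT/slow replicates (2.5, 2.8 and 21.3 kb upstream) do not. With every boundary as deposited the slow/slow boundary of ENSMUST00000183513 at 15 min was 17.4 kb above that of WT/WT cells (adjusted p = 0.00798, 3 of 3 values above 3 of 3), and the transcript ENSMUST00000070731 from the same start was 18.4 kb above (adjusted p = 0.0408, 3 of 3 above 3 of 3), where 4.66% of all transcripts were called. Under the same setting, the slow/slow advance exceeded the WT/WT advance in 3 of the 4 transcripts from this start (19.7, 23.3 and 23.3 kb, adjusted p = 0.0162, 0.000744 and 0.0102, 3 of 3 slow/slow values at 15 min above those of WT/WT), beside 3.73% of all. These calls rest on counting 2.5 kb as a measured distance. With 2.5 kb left out, only ENSMUST00000070731 of the 4 could be compared at 15 min (18.1 kb, adjusted p = 0.106, 3 of 3 slow/slow values above 2 of 2), and the difference in advance could be tested in none.

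Jarid2 and Esrrb each have a start 109 kb downstream of the upstream one. The internal Jarid2 start gave 12.1, 13.1 and 5.0 kb in WT/WT cells at 5 min, 14.7 kb in 1 sample at 15 min, too few to test, and 11.4 and 8.1 kb at 30 min. In slow/slow cells it was 15.1 kb in 1 sample at 5 min, in 1 at 15 min and in 2 at 30 min, the remaining values being 2.5 kb. The Esrrb start at this distance, with GGGCGG and TTCNNNGAA in its window, gave 7.8, 7.6 and 7.6 kb in slow/slow cells at 5 min and 17.3, 19.3 and 21.9 kb at 15 min, and it advanced by 11.8 kb (adjusted p = 0.0339, 3 of 3 values above 3 of 3). In WT/WT cells it stood at 17.5 and 11.8 kb at 5 min and at 3.2 kb, in 1 sample, at 15 min. At the Esrrb starts 60.5 and 60.8 kb downstream all slow/slow values were 2.5 kb at each time. At the 7 Jarid2 starts within 3 kb of the start of the longest transcript, mean boundaries at 15 min in slow/slow cells lay between 35.0 and 41.5 kb. Over all starts, 4 of 27 member transcripts tested advanced in WT/WT cells, near the 13.7% over all transcripts. The counts were 21 of 39 in WT/slow (17.9%) and 27 of 42 in slow/slow cells (29.6%). In the mutant genotypes most that advanced were Dnmt3b and Jarid2 transcripts with the same or nearby starts. The shares over all transcripts were not matched by length.

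Values of exactly 2.5 kb were themselves unevenly spread. Over the 57 transcripts they made up 18.1% ± 11.3 (SD, n = 3) in WT/WT, 29.8% ± 20.2 in WT/slow and 21.6% ± 4.05 in slow/slow cells at 5 min, beside 21.1, 23.2 and 20.6% of the boundaries called over all transcripts of at least 20 kb. At 15 min the shares were 53.2% ± 23.8, 24.0% ± 8.10 and 20.5% ± 14.3, beside 47.7, 43.1 and 35.5% of the boundaries called over all. Of the boundaries called, the member shares were 53.9, 24.0 and 21.5%. With empty entries counted, the WT/WT values at 15 min were 40.4, 80.7 and 38.6% in the 3 replicates, against 10.5, 36.8 and 14.0% in slow/slow cells. On this basis all 3 WT/WT samples were above all slow/slow samples. Of the boundaries called, slow/slow replicate 2 (39.6%) lay just above WT/WT replicate 3 (39.3%). WT/WT replicate 2 stood apart with 9 of 57 transcripts above 2.5 kb. Without it, a choice made after the data were seen, the WT/WT share was 39.5%. Over all transcripts, empty entries included, the same sample had the highest share at 15 min, 49.4%.

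At 30 min most members were at 2.5 kb in each genotype, 78.9% ± 9.77 in WT/WT, 82.5% ± 11.5 in WT/slow and 80.1% ± 3.65 in slow/slow cells. Of the boundaries called, the member shares were 78.9, 83.0 and 80.6%, beside 65.6, 69.9 and 67.8% over all transcripts. The genotypes overlapped at this time. In the longest protein-coding transcripts, all 9 values were 2.5 kb at 30 min in Dnmt3b, Jarid2, Lifr, Il6st and Tcf7l1. Other transcripts of each of these genes had some values other than 2.5 kb at this time. The longest Stat3 transcript gave 6.0 and 4.4 kb in WT/WT cells, 42.1 kb in WT/slow cells and 4.4 kb in slow/slow cells.

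**Figure D4:**
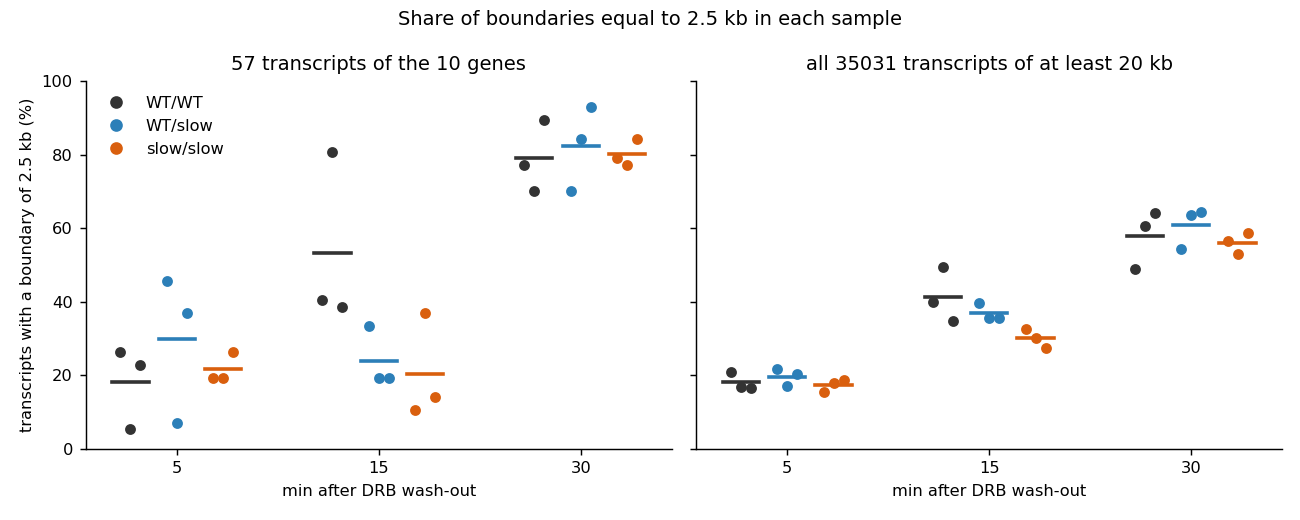
Percent of transcripts with a boundary of 2.5 kb (vertical axis) against minutes after DRB removal, for the 57 transcripts (left) and all transcripts of at least 20 kb (right); points are samples, bars are means of 3 replicates. At 15 min, with empty entries counted, the WT/WT samples of the 57 transcripts (38.6 to 80.7%) lie above the slow/slow samples (10.5 to 36.8%). Of the boundaries called they overlap, with 39.3% in WT/WT replicate 3 and 39.6% in slow/slow replicate 2.

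The share was also read by gene length. At 15 min, among the 4 genes under 60 kb (Tfcp2l1, Dnmt3b, Il6st and Stat3), a split made after the values were seen, 11 of 12 values were 2.5 kb in WT/WT cells, beside 2 of 12 in WT/slow and 2 of 12 in slow/slow cells. At 5 min the counts had been 2, 1 and 0 of 12, and at 30 min they were 9, 10 and 11 of 12. In the 6 genes of 60 kb or more the counts at 15 min were 4, 3 and 3 of 18. In WT/WT cells the 4 shorter genes thus had 10 of 12 values other than 2.5 kb at 5 min and 1 of 12 at 15 min (Stat3, 36.2 kb), while both mutant genotypes had 10 of 12 at 15 min, with group means of 12.1 to 40.7 kb.

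Over all 7189 genes of 20 to 60 kb, empty entries included, the share at 15 min was 46.1% ± 6.51 in WT/WT, 42.4% ± 1.52 in WT/slow and 34.7% ± 4.36 in slow/slow cells. The genotypes were closest in genes of 20 to 30 kb (47.1, 48.5 and 45.9%) and farthest apart in genes of 40 to 50 kb (44.7, 34.5 and 21.7%), in genes of 60 to 100 kb they were 30.7, 23.7 and 15.5%, and in genes of 100 kb or more 29.7, 25.7 and 21.2%. At 40 to 50 kb, where Il6st falls, the lowest WT/WT sample had 36.9% and the highest slow/slow sample 27.9%.

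**Figure D5:**
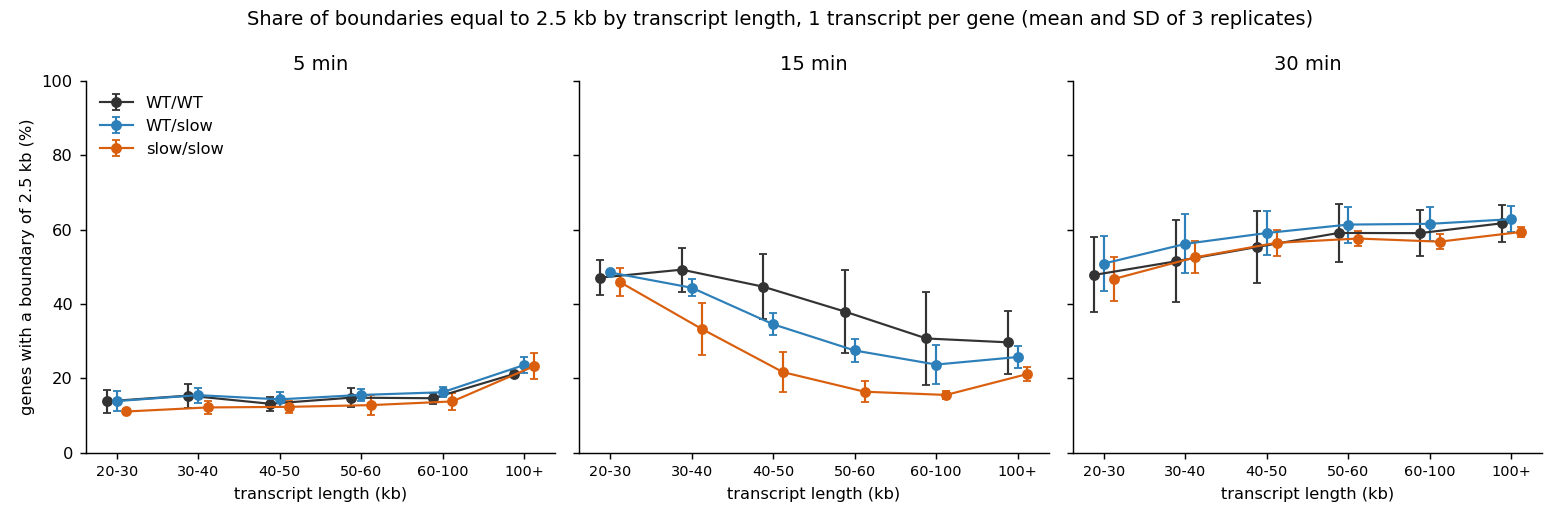
Percent of genes with a boundary of 2.5 kb (vertical axis) by transcript length in kb (horizontal axis) at 5, 15 and 30 min, 1 transcript per gene; points are means and bars the SD of 3 replicates. At 15 min the WT/WT mean lies above the slow/slow mean at each length. The gap is smallest at 20 to 30 kb (47.1 and 45.9%) and largest at 40 to 50 kb (44.7 and 21.7%). At 5 and 30 min the means lie close together.

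Other genes of the same pathways were read with 1 transcript per gene. Of 27 LIF, JAK-STAT and receptor signalling genes, 20 have a transcript of at least 20 kb. Counts for these lists are read beside the 13.7, 17.9 and 29.6% of all transcripts that advanced with 0, 1 and 2 slow alleles. These shares were not matched by length. LIF list boundaries advanced in 3 of 13 tested in WT/WT cells, the receptor kinase Jak2 (20.1 kb) and the PI3 kinase subunits Pik3r1 (20.6 kb) and Pik3ca (35.4 kb). In WT/slow cells 3 of 13 advanced (Jak2 26.3 kb, the adaptor Grb2 29.5 kb and the STAT inhibitor Pias1 29.7 kb), and in slow/slow cells 9 of 15, for instance Grb2 (31.0 kb), Pdpk1 (27.5 kb) and Pias1 (22.5 kb). In slow/slow against WT/WT cells at 5 min, limma called 0 of 17 genes of this list and 5 had an unadjusted p under 0.05, with 14 of 17 negative (median -5.90 kb), beside 1983 of all 21245 transcripts at an unadjusted p under 0.05 and 74.5% of all genes negative (median -2.77 kb). Pdpk1 (-22.2 kb), Pik3r1 (-20.1 kb) and the exchange factor Sos1 (-19.7 kb) had the largest differences, with adjusted p values of 0.308, 0.307 and 0.308, beside 1.12 kb in Lifr and -6.23 kb in Stat3.

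Of 12 DNA methylation and hydroxymethylation genes besides the members, 0 of 6 tested advanced in WT/WT (limma, 0 at an unadjusted p under 0.05), 1 of 5 in WT/slow and 1 of 7 in slow/slow cells, in both cases Ogt, which encodes the O-GlcNAc transferase that binds TET proteins (21.4 and 19.2 kb). The maintenance methyltransferase gene Dnmt1 stood 11.9 kb farther out at 5 min in slow/slow cells compared with WT/WT, with an adjusted p of 0.485 (limma). At that time 5 of the 8 genes tested were negative, beside 74.5% of all genes, among them Mbd2 (-17.7 kb, adjusted p = 0.489) and Ogt (-12.1 kb, adjusted p = 0.354). At 15 min 5 of 5 were positive (median 8.7 kb), with Ogt at 14.3 and Mbd2 at 5.65 kb, beside 50.6% of all genes negative. Of 11 genes of Polycomb repressive complex 2, with which JARID2 associates, 2 of 3 advanced in WT/WT, the methyltransferase gene Ezh2 by 22.7 kb and Aebp2 by 23.2 kb. In WT/slow cells 4 of 6 passed, Ezh2 (34.0 kb) and Aebp2 (28.9 kb) upward while Mtf2 fell by 11.1 kb and Rbbp4 fell by 12.5 kb, and in slow/slow cells 3 of 6 advanced, Suz12 by 23.9 kb among them. Over the 3 genotypes together Ezh2 and Aebp2 advanced by 17.9 to 34.0 kb and Jarid2 by 21.8 to 25.1 kb. In WT/WT cells Jarid2 (23.4 kb) differed from both by less than their SEs (6.55 kb in Ezh2 and 4.95 kb in Aebp2). Jarid2 lay above both in slow/slow and below both in WT/slow cells, and these genes were not tested against each other.

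Of 20 Wnt and beta-catenin pathway genes, 3 of 8 advanced in WT/WT cells (the co-repressor Tle4 by 37.4 kb, Tcf7l2 by 30.2 kb and the scaffold Axin1 by 22.9 kb), 4 of 8 in WT/slow and 5 of 11 in slow/slow cells. Tcf7l2, a relative of Tcf7l1, had a mean of 26.1 kb in slow/slow and 44.5 kb in WT/WT cells at 15 min (difference -18.4 kb, adjusted p = 0.302), beside 0.533 kb in Tcf7l1. Of 30 core and naive pluripotency factors only 6 have a transcript of at least 20 kb, and limma called 0 of 4, 0 of 3 and 0 of 2 advances, with 0 at an unadjusted p under 0.05. In the comparisons between genotypes limma called 0 genes of each of the 5 lists, with 0 to 5 genes of a list at an unadjusted p under 0.05. Among commonly used markers of ESCs, Pou5f1, Sox2, Nanog, Klf4 and Zfp42 have no transcript of 20 kb, the minimum length used here. Pou5f1 and Sox2 had no boundary in any sample, Nanog had one in 9, Klf4 in 20 and Zfp42 in 24 of the 27 samples, other than 2.5 kb in 8, 1 and 1 of them, and the boundaries do not measure expression.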

How the data were processed

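The deposited tables give, for each of 27 samples, the wave-front boundary of each transcript as a distance in bases from its start site, without normalization and empty where none was called. Per the labels and methods, the authors mapped reads to GRCm38 (mm10) with bowtie 2 (2.2.9), kept uniquely mapped reads outside rRNA and located the end of the wave with published software, each sample against the average at 0 min. The annotation release is not stated. Here 122200 of 122968 transcripts were matched by identifier to GENCODE release M21 (117309 with the same start and end, and 56 of the 57 members). Transcripts of at least 20 kb were kept and boundaries of 2.5 kb set to missing. Differences were fitted with limma (3.58.1, R 4.3.3), with 1 mean per group, at least 2 of 3 boundaries in each group, two-sided tests and Benjamini-Hochberg adjustment over all transcripts tested, called at an adjusted p under 0.05. Genotypes were compared within the 9 samples of a time, and advances within the 18 samples at 5 and 15 min. At 30 min only values and shares are given. Numbers were computed in kb with Python (3.11.15) and pandas (2.3.3). The fit of slow/slow against WT/WT was tested on simulated data at 5 and 15 min. It missed every shift of 10 kb and most shifts of 20 kb, so that a difference not called does not show equal boundaries. Means are over boundaries other than 2.5 kb. Named are the 10 genes by their longest protein-coding transcript, their other transcripts by start site (starts within 100 bases joined), and from each list genes out of the up to 4 with the largest difference in a comparison, taken among those called or, if none was called, among those tested. The value of 1 such gene is not reported here. The members and lists were chosen with earlier results of these data known. Alternatives kept every boundary, kept 2.5 kb at 5 min, required all 3 boundaries, used at least 60 kb or no minimum length, 1 transcript per gene, log2 values, a replicate block, or left out each replicate in turn.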

Additional observations from a re-analysis of the deposited data

How the results depend on the processing

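Calls over all transcripts under each alternative were as follows, and the cause of a different count was not tested. slow/slow against WT/WT at 5 min had 11 calls, 25 with every boundary kept, 25 with 2.5 kb left out at 15 min only, 6 with all 3 boundaries, 7 without a minimum length, 6 with 1 transcript per gene, 0 with the replicate block and 0 to 24 with a replicate left out. At 15 min it had 406, and 1391 with every boundary, 202 with all 3, 1 at 60 kb or more, 134 with 1 per gene, 0 with the block and 0 to 337 with a replicate left out (2 without WT/WT replicate 2 at 15 min). WT/slow against WT/WT at 5 min had 8, and 25 with every boundary, 25 with 2.5 kb left out at 15 min only, 1 with all 3, 3 with 1 per gene, 3 on log2 values, 0 with the block and 0 to 16 with a replicate left out. At 15 min it had 291, and 519, 106 with all 3, 110 at 60 kb or more, 102 with 1 per gene, 0 with the block and 86 to 181 with a replicate left out. The advance in WT/WT had 2078, and 3490 with every boundary, 952 with all 3, 690 with 1 per gene, 1106 on log2 values and 1087 to 1915 with a replicate left out. In WT/slow it had 2726, and 4190, 1634, 899, 1306 in the same order and 1515 to 2719. In slow/slow it had 4961, and 2396 at 60 kb or more, 1730 with 1 per gene and 2657 to 3878. The difference in advance had 165, and 1078 with every boundary, 30 with all 3, 11 at 60 kb or more, 55 with 1 per gene, 105 on log2 values and 28 to 166. The block rests on shared replicate numbers only. Of 21 same-number correlations, 11 were over 0.1, and 20 of 21 were higher than with another number, a hint from the data and not the design. With the block, adjusted p was 0.0669 for the advance of Jarid2 in WT/WT, 0.0604 for Dnmt3b in WT/slow and 0.0588 for Il6st in slow/slow cells, which were then not called. It was 0.0338 and 0.0475 for Lifr in WT/slow and slow/slow cells, which then were. The share at 2.5 kb in slow/slow cells at 30 min was 80.1%, and 87.2% at 60 kb or more. For single genes, signs turned in slow/slow against WT/WT at 5 min for Lifr (1.12 kb, and -1.53 with every boundary, -1.53 with 2.5 kb left out at 15 min only, -1.05 with the block, -1.05 to 4.30 with a replicate left out), Il6st (-3.75 kb, and 0.667 with every boundary, 0.667 with 2.5 kb left out at 15 min only) and Tcf7l1 (-0.267 kb, and -2.28 to 2.62 with a replicate left out). At 15 min they turned for Jarid2 (-7.22 kb, and 6.03 with every boundary) and Tcf7l1 (0.533 kb, and -9.97 to 5.88 with a replicate left out). In WT/slow against WT/WT at 5 min they turned for Tet1 (-0.467 kb, and 0.0104 on log2 values, -2.47 to 0.600 with a replicate left out), Il6st (-1.28 kb, and 3.13 with every boundary, 3.13 with 2.5 kb left out at 15 min only) and Stat3 (4.57 kb, and -0.483 to 9.67). At 15 min they turned for Tet1 (1.78 kb, and -1.61 with the block, -2.45 to 4.40) and Jarid2 (-3.58 kb, and 9.67 with every boundary, -10.4 to 1.30). The advance of Tet1 in slow/slow cells (0.833 kb) ran from -2.10 to 4.28. The difference in advance turned for Tet1 (-2.32 kb, and 0.267 with every boundary, -5.25 to 1.13), Jarid2 (-1.58 kb, and 11.7 with every boundary, 0.18 on log2 values, -6.35 to 3.60) and Tcf7l1 (0.800 kb, and -9.70 to 6.15).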
